A study of Harpegnathos saltator with 12 samples.

Results

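In the antennae of adult Harpegnathos saltator ants, 60 genes stood in the order homozygote, heterozygote, wild type for a mutation in orco, with the homozygote highest and no library of 1 genotype overlapping the next. They were chosen on these values from the 13601 genes that carry a LOC identifier, with LOC105188823 left aside, out of 14407 genes in the tables. A gene was kept if its homozygote mean reached 100 normalized counts, its highest wild-type library lay below its lowest heterozygote library, and its highest heterozygote library lay below its lowest homozygote library. The heterozygote mean had to be more than 1.5 and less than 4 times the wild-type mean, and the homozygote mean at least 1.2 times the heterozygote mean. Because this choice used every genotype comparison in all 12 libraries, the differences between genotypes given for the 60 genes are descriptions and carry no test.

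Bulk RNA sequencing was done on antennae of homozygous orco mutants (n = 7 libraries), heterozygotes (n = 3) and wild-type ants (n = 2). The mutant line was made earlier by CRISPR/Cas9 editing, and the mutation is passed on through heterozygous females. Age and the number of ants per library are not in the labels, so p-values measure only the spread between these libraries, which may be partly technical. Sequencing batch 1 held homozygote replicate 1, heterozygote replicate 1 and wild-type replicate 2, and batch 2 held the other 9 libraries.

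Odorant receptor neurons of the insect antenna detect odors with a tuning odorant receptor and the co-receptor Orco, which together form an ion channel. Ants carry a large family of odorant receptor genes, and the antenna also holds glia, support cells, epithelium, muscle and neurons of other senses. Bulk RNA sums all of these, so in these counts alone fewer cells of a type and less RNA per cell cannot be told apart. From staining of pupal antennae and sequencing of single nuclei, the study reports that most odorant receptor neurons die in homozygous mutants.

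The libraries held between 4.11 and 23.2 M gene-assigned counts, with 11812 to 12402 genes at 1 count or more. The co-receptor gene orco itself lay between 143 and 1700 normalized counts in homozygotes, against 17740 to 26889 in heterozygotes and 23957 to 29983 in wild type. The homozygote libraries thus did not overlap the others for orco, whereas heterozygotes and wild type did overlap. The counts carry no strand information, so reads of overlapping or antisense genes cannot be separated from those of the 60 genes.

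The steps of the rule show where the genes were lost. Of the LOC genes, 7822 reached the homozygote minimum, and the 60 make up 0.767% of these. Heterozygote libraries all lay above wild type in 1011 genes, and homozygote libraries also lay above heterozygotes in 114 of them. The lower limit on the heterozygote to wild-type ratio left 80, and its upper limit left 60. Dropping the homozygote to heterozygote limit adds no gene, since every gene that met the other conditions already passed it.

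The 60 genes together took between 0.659% and 0.878% of the normalized total in homozygote libraries, against 0.464% to 0.615% in heterozygotes and 0.226% to 0.316% in wild type. The homozygote mean was a median of 1.64 times the heterozygote mean, ranging over the 60 genes from 1.29 to 3.11. The heterozygote mean was a median of 2.04 times the wild-type mean (1.502 to 3.86), and the homozygote mean a median of 3.30 times the wild-type mean (1.98 to 9.62). In 8 genes the homozygote mean was at least 5 times the wild-type mean.

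**Figure D1:**
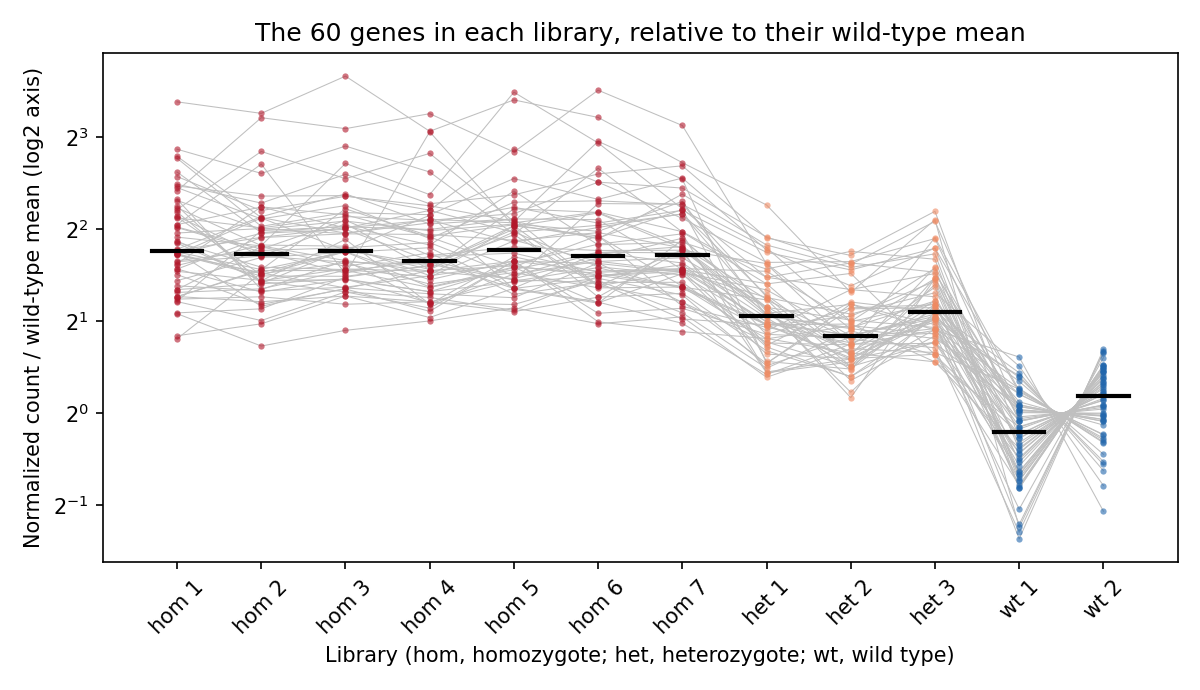
Normalized count of each of the 60 genes divided by its own wild-type mean (log2 axis), in the 7 homozygote, 3 heterozygote and 2 wild-type libraries. Points are genes, grey lines join the same gene and black bars are the median over genes. The separation of the 3 groups is set by the choice of the genes, and the lines cross between the wild-type libraries because each gene is divided by the mean of those libraries.

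The heterozygote did not sit at 1 fixed place between the other genotypes. The heterozygote mean covered a median of 42.1% of the difference between the wild-type and homozygote means, with a range of 18.8% to 66.1%. In 29 genes this share lay from 40% to 60%, in 23 genes below it and in 8 genes above it. As a ratio, the difference between heterozygote and wild type was the larger one in 50 genes and that between homozygote and heterozygote in 10, but the rule asks for more of the first ratio than of the second.

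**Figure D2:**
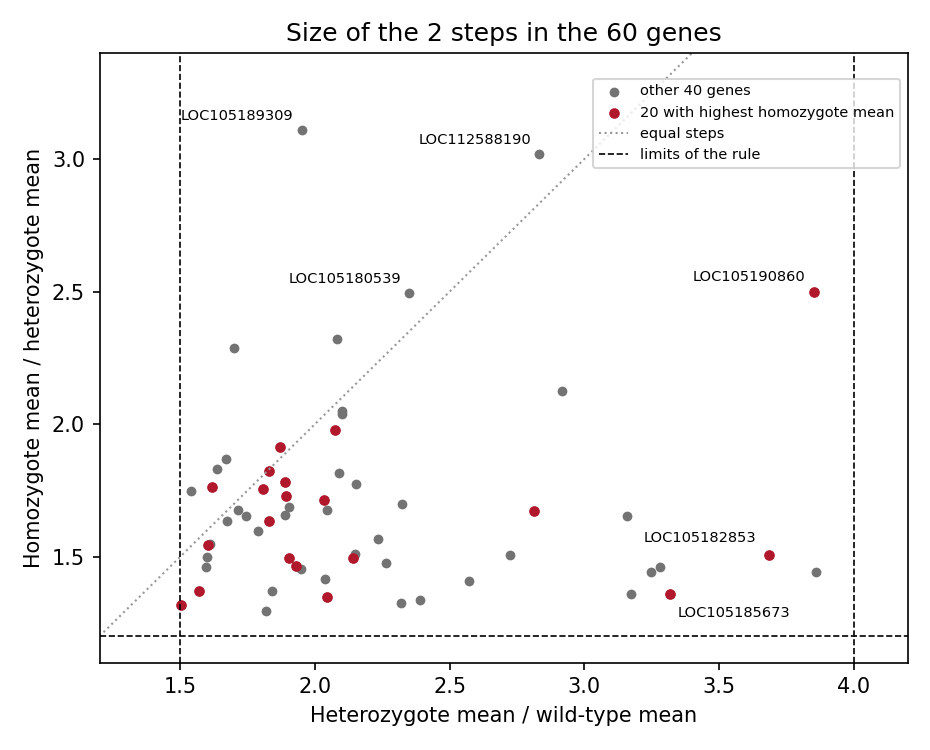
Homozygote mean over heterozygote mean against heterozygote mean over wild-type mean for the 60 genes, 1 point per gene, with the 20 genes of highest homozygote mean in red. Dashed lines are the limits of the rule and the dotted line marks equal ratios. There are 50 genes below the dotted line and 10 above it.

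Spacing between the groups was narrow in many of the genes. The lowest homozygote library was a median of 1.11 times the highest heterozygote library, and the lowest heterozygote library a median of 1.336 times the highest wild-type library. At least 1 of these gaps was under 1.1 in 35 genes. The spread within homozygotes was ordinary, with a coefficient of variation of median 14.9% (4.47% to 41.6%), beside 14.4% over the LOC genes that reached the minimum.

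Among the 20 genes with the highest homozygote mean, the most abundant was LOC105191701. Its lowest, median and highest normalized counts were 11807, 14074 and 15165 in homozygotes, against 8599, 5968 and 9294 in heterozygotes and 3949 and 4458 in wild type, with heterozygote and wild-type values given here and for the other genes in order of replicate number. The homozygote mean was 1.73 times the heterozygote mean and 3.27 times the wild-type mean. Neither the files nor the gene table used here give a product for it or for the rest of the 20.

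A tight wild type and a wide gap up to the heterozygote marked LOC105185673 and LOC105182853. LOC105185673 had a homozygote lowest, median and highest of 2019, 2177 and 2848, against 1556, 1566 and 1863 in heterozygotes and 470.0 and 532 in wild type. LOC105182853 had 1039, 1226 and 1652 in homozygotes, against 848, 690.1 and 953 in heterozygotes and 227 and 224 in wild type. Their lowest heterozygote library was 2.93 and 3.04 times their highest wild-type library, while their homozygote mean was only 1.36 and 1.51 times the heterozygote mean.

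The widest span of the 60 belonged to LOC105190860. Its homozygote libraries had a lowest, median and highest value of 2456, 3562 and 4714, against 1786, 924 and 1599 in heterozygotes and 157 and 588 in wild type. The homozygote mean of 3589 ± 708 (SD, n = 7) was 2.50 times the heterozygote mean of 1436 ± 454 (n = 3) and 9.62 times the wild-type mean of 373 ± 305 (n = 2). The wild-type libraries themselves differed 3.74-fold, so the size of the last ratio depends on which of them is taken.

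Wild-type replicate 2 was at least 2 times replicate 1 in 16 of the 60 genes, and at least 3 times in 5, all of them among the 20. LOC105189171 had the largest such ratio, with homozygote values of 788, 1328 and 1667 (lowest, median, highest), against 672, 599 and 709 in heterozygotes and 137 and 569.6 in wild type. LOC105191392 had 1250.2, 1391 and 1616 in homozygotes, against 1142, 848 and 796 in heterozygotes and 198 and 777 in wild type. LOC105181381 had 999, 1129 and 1601 in homozygotes, against 925, 655 and 771 in heterozygotes and 158 and 574 in wild type. In LOC105189171 and LOC105191392 the higher wild-type library came within 1.1-fold of the lowest heterozygote library.

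LOC105184483 was of the same kind at a higher level, with 6004, 7455 and 9783 in homozygotes, against 4620.3, 5104 and 4792 in heterozygotes and 1282 and 4011 in wild type. LOC105189520 and LOC105183431 had wild-type libraries 2.34-fold and 2.53-fold apart. LOC105189520 had 3922, 5069 and 5759 in homozygotes, against 3659, 2102 and 3136 in heterozygotes and 631 and 1478 in wild type. LOC105183431 had 2211, 3218 and 3908 in homozygotes, against 1493, 1247 and 1935 in heterozygotes and 425 and 1076 in wild type. A gap of this size between the wild-type libraries was not particular to the 60 genes, since 20.1% of the LOC genes past the minimum had replicate 2 at least 2 times replicate 1.

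In another set of genes heterozygote replicate 2 lay far below the other heterozygotes and near the wild type. LOC105186077 had 1527, 1897 and 1990.5 in homozygotes, against 1149.7, 579 and 1422 in heterozygotes and 501 and 532 in wild type. LOC105188843 had 1235, 1537 and 1724 in homozygotes, against 971, 518 and 944 in heterozygotes and 392 and 494 in wild type. LOC105186275 had 2368, 3085 and 3235 in homozygotes, against 2175, 1179.9 and 1651 in heterozygotes and 947 and 901 in wild type. For these genes the heterozygote mean averages libraries that lay in different places between the other genotypes.

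The homozygote and heterozygote libraries of the 20 came closest in LOC105192460, LOC105183111, LOC105187505 and LOC105184815. LOC105192460 had 3800.1, 4592 and 5067 in homozygotes, against 3003, 3724 and 3619 in heterozygotes and 2747 and 1845 in wild type. LOC105183111 had 2273, 3880.1 and 4238 in homozygotes, against 1425, 2230.4 and 1910.0 in heterozygotes and 1299 and 666 in wild type. The lowest homozygote library of both genes was only 1.02 times the highest heterozygote library. LOC105187505 had 2021, 2645 and 3799 in homozygotes, against 1288, 1397 and 1931 in heterozygotes and 1207 and 697 in wild type. LOC105184815 had 977, 1121 and 1398 in homozygotes, against 729.9, 917 and 922 in heterozygotes and 572 and 520.1 in wild type. In all 4 genes wild-type replicate 1 was the higher wild-type library.

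The 3 genes left of the 20 had moderate ratios and small spread within homozygotes. LOC105189504 had 3126, 3419 and 3711 in homozygotes, against 2789.9, 1974 and 2917 in heterozygotes and 1281 and 1226 in wild type. LOC105181156 had 2406, 2866 and 3106 in homozygotes, against 1586, 2104 and 1749 in heterozygotes and 963 and 1302 in wild type. LOC105180969 had 2189, 2615 and 3069 in homozygotes, against 1783, 1640.0 and 1855 in heterozygotes and 672 and 1153 in wild type. Their homozygote means were 1.35, 1.54 and 1.46 times their heterozygote means.

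**Figure D3:**
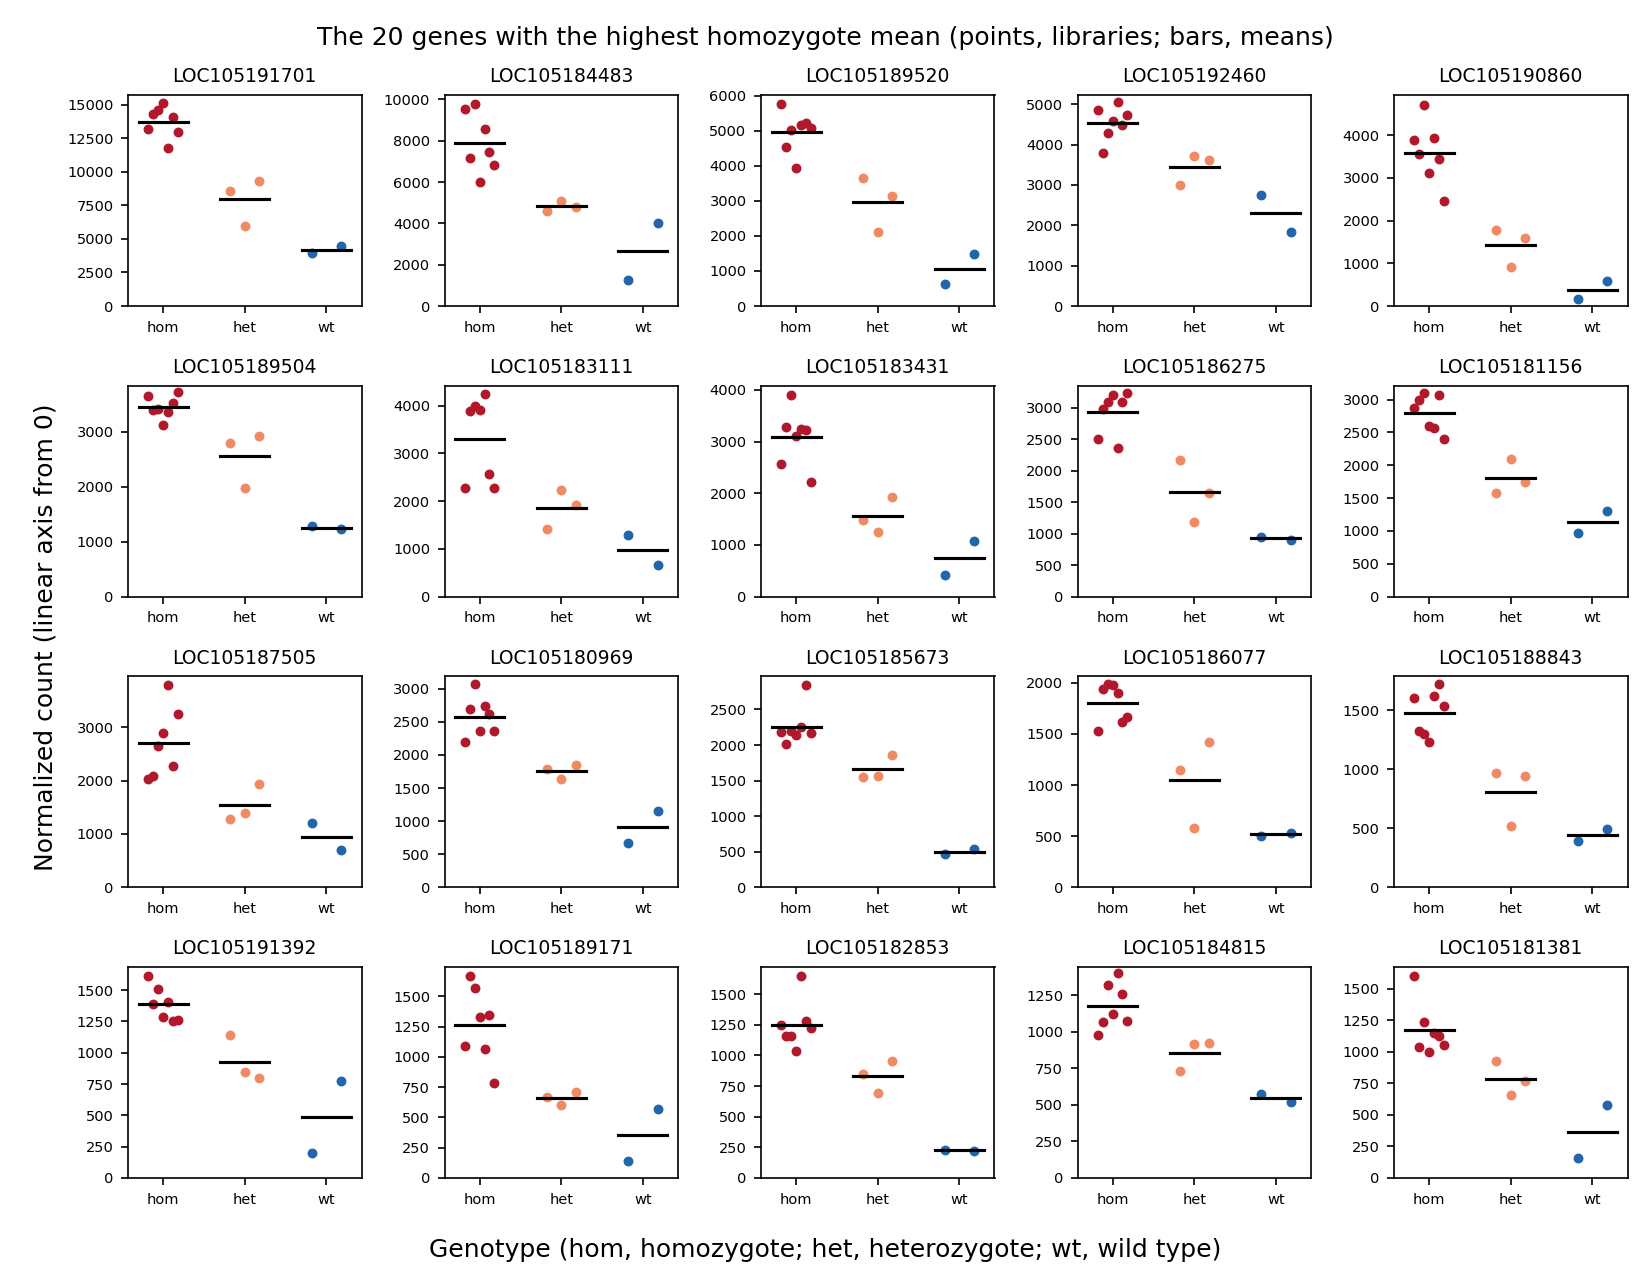
Normalized counts of the 20 genes with the highest homozygote mean, 1 panel per gene on a linear axis from 0. Points are libraries (7 homozygote, 3 heterozygote, 2 wild type) and bars are group means. No panel has overlapping groups, which the choice of genes fixes, and the wild-type libraries are furthest apart as a ratio in LOC105189171 (137 and 569.6).

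The other 40 genes had homozygote means from 123 to 1157 (median 371), heterozygote means from 40.9 to 792 (median 225) and wild-type means from 14.4 to 496 (median 104). Some of the steepest genes were among them, and the next 3 were chosen after their values were seen. LOC105189309 had 109.6, 151 and 201 in homozygotes, against 37.7, 56.8 and 57.3 in heterozygotes and wild-type values that average 25.9. Only 18.8% of its difference between wild type and homozygote was present in the heterozygote, the lowest share of the 60. LOC112588190, the only one of the 60 annotated as a long noncoding RNA, had 76.8, 126 and 164 in homozygotes, against 44.3, 24.2 and 54.1 in heterozygotes and 17.1 and 11.8 in wild type. Its lowest raw count was 5, the smallest of the 60, so its 8.55-fold ratio of homozygote to wild type rests on few reads. LOC105191132 was the most variable in homozygotes, from 175 to 556 with a median of 257, against 138, 154 and 143 in heterozygotes and 47.5 and 51.8 in wild type.

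The limits of the rule cut through a continuum of values. LOC112588190 and LOC105188220 were just inside the homozygote minimum, at means of 123 and 127, and LOC109504604 and LOC105188708 just outside, at 87.05 and 95.6. At the lower limit of the heterozygote to wild-type ratio, LOC105192460 (1.502) and LOC109504449 (1.54) were inside and LOC105192137 (1.48) and LOC105185000 (1.497) outside. At its upper limit, LOC105190860 (3.85) and LOC105190225 (3.86) were inside and LOC105180892 (4.08) and LOC105189233 (4.09) outside. For the homozygote to heterozygote ratio, LOC105189576 (1.29) and LOC105192460 (1.32) came closest to the limit, and no gene failed it alone.

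The requirement of no overlap decided more genes than the ratios did. The gap between the lowest homozygote and highest heterozygote library was 1.001 in LOC105183617 and 1.02 in LOC105183111, inside the rule, and 0.994 in LOC105182920 and 0.995 in LOC105188249, outside it. This condition alone kept out 150 genes. The gap between the lowest heterozygote and highest wild-type library was 1.01 in LOC105189892 and 1.03 in LOC105191392, inside, and 0.981 in LOC105190053 and 0.997 in LOC105182349, outside, and 30 genes failed it alone.

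Which library was extreme within its genotype varied over the 60 genes, but not evenly. Heterozygote replicate 2 was the lowest heterozygote in most of them (37 of 60), but in only 35.2% of the LOC genes past the minimum. Heterozygote replicate 3 was the highest in most of them (32 of 60), but in only 26.1% of those LOC genes. Wild-type replicate 2 was the higher wild-type library in 38. Homozygote replicate 1, the batch 1 homozygote, was the highest homozygote in 15 of 60, beside 28.6% of those LOC genes. The muscle gene Mhc, which encodes the heavy chain of muscle myosin, was also lowest in heterozygote replicate 2. It had 6406 normalized counts there, against 50741 and 35756 in the other heterozygotes. Mhc was not alone in this among the cell type markers given below. The lowest heterozygote was also replicate 2 for orco, Rh50, nompC, repo, sv, LOC105190591 and LOC105182650. The epithelial marker grh was highest in that library, and the remaining markers lay between the other heterozygotes.

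The rule was then applied to 11 libraries at a time and the library left out was read in the genes it had no part in choosing. Without a homozygote library the rule found between 61 and 72 genes, and the library left out lay above every heterozygote in 83.3% to 98.4% of them. Without heterozygote replicate 1, 2 or 3 it found 97, 118 and 82 genes, and the library left out lay between the other genotypes in 63.9%, 50% and 72.0%. Heterozygote replicate 2 reached down to a wild-type library in 36 of its 118 genes and up to a homozygote library in 23. Heterozygote replicate 1 reached down to a wild-type library in 3 of its 97 genes and up to a homozygote library in 32.

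The wild-type libraries, which belong to different sequencing batches, differed widely in this reading. Each choice rested on the single wild-type library that remained. Without wild-type replicate 1 the rule found 60 genes, 43 of them among the 60 chosen with all libraries, and replicate 1 lay below every heterozygote in 50. Without wild-type replicate 2 it found 149 genes, 43 of them shared with the 60, and replicate 2 lay below every heterozygote in 52 of the 149, or 34.9%.

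**Figure D4:**
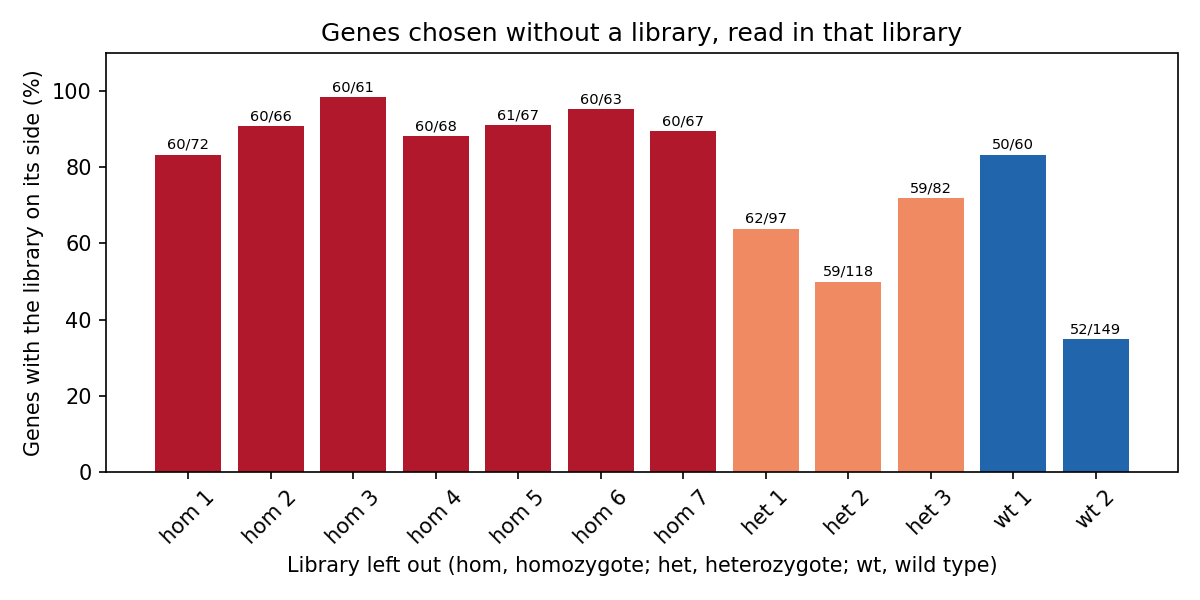
Percent of the genes chosen from the other 11 libraries in which the library left out lay on the side its genotype calls for, with the number of genes above each bar. Homozygote libraries lay at 83.3% or more, heterozygotes between 50% and 72.0%, and the wild-type libraries at 83.3% and 34.9%. Bars of different genotypes cannot be compared. A heterozygote had to lie between both other genotypes, and the genotypes had unequal numbers of libraries left for the choice.

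A fit across all 10740 genes that averaged 10 or more raw counts gave the background for these values (edgeR quasi-likelihood test with sequencing batch as a term, Benjamini-Hochberg adjusted p under 0.05). Between homozygote and heterozygote, 45 of the 60 genes were called higher, where 6.82% of all genes tested were. Between heterozygote and wild type 52 were called higher (9.71% of all genes), and between homozygote and wild type all 60 were (19.1%). No one of the 60 was called lower in any of these, where 16.2%, 8.14% and 25.8% of all genes were. Nothing is read from these counts, because the genes were chosen on the same differences and the comparisons share libraries. The median fitted log2 fold change of the 60 was 0.69, 1.07 and 1.87 in the 3 comparisons, beside -0.023, 0.032 and -0.062 over all genes.

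The number of calls among the 60 moved with the libraries and the scaling. Scaling by library totals in place of TMM left 20 of 60 called between homozygote and heterozygote and 30 between heterozygote and wild type. The first count was 22 without heterozygote replicate 1 and 18 without replicate 2, and the second was 18 without wild-type replicate 1. In batch 2 alone, where the wild type is a single library, the counts were 37, 45 and 60.

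Annotation of the 60 is sparse. The RefSeq gene table for the species matched 39 of them, of which 38 were protein coding, and gives no product names. The matched genes spanned a median of 7593 bp (1844 to 89315), beside 4883 bp in the 4191 matched LOC genes past the minimum. The study's supplement places 10 of the 60 under gene ontology terms, and these were picked for their annotation after their values were known. It lists only terms enriched among early, intermediate or late genes of pupal antennae, so it is not a full annotation. Genes listed under a term may not be all of its genes. The shares over all genes tested that are given below are not matched for that choice.

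Both of the genes under glycine import across the plasma membrane also belong to carboxylic acid transport. Glycine is an amino acid used to build proteins and, at some synapses, as a transmitter. LOC105182853, described above, is one of them, and LOC105188068 is the other, with 662, 725 and 948 in homozygotes (lowest, median, highest), against 459, 453 and 505 in heterozygotes and 288 and 254 in wild type. Its gaps between groups, of 1.31 and 1.57, were wider than in most of the 60.

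The supplement lists 8 genes under this term, and the other 6 were not chosen on these values. Of these 6, 1 rose in homozygotes over heterozygotes, 2 in heterozygotes over wild type and 4 in homozygotes over wild type, and none fell (edgeR, adjusted p under 0.05). Over all genes tested, 6.82%, 9.71% and 19.1% rose in these comparisons and 16.2%, 8.14% and 25.8% fell. Among the 4, LOC105184411 had 86.1 and 532 in wild type, against 436 to 977 in homozygotes. LOC105184412 had 486 and 876 in wild type, against 756 to 1712 in homozygotes. In both, wild-type replicate 2 lay within the homozygote range, and neither gene was followed through the alternatives. LOC105186120 averaged 676 ± 171 in homozygotes (SD, n = 7), 439 ± 64.5 in heterozygotes (n = 3) and 59.2 ± 17.1 in wild type (n = 2). Its libraries also stood in order without overlap, but its heterozygote to wild-type ratio was above the upper limit of the rule. It rose in heterozygotes by a log2 fold change of 2.83 ± 0.30 (SE, edgeR adjusted p = 2.36e-04), and the homozygote difference of 0.51 ± 0.20 missed the threshold (adjusted p = 0.0842). LOC105186122 rose by 1.04 ± 0.18 in heterozygotes over wild type (edgeR adjusted p = 0.00349). The single call between homozygote and heterozygote, LOC105184816 at a log2 fold change of 0.41 ± 0.13 (edgeR adjusted p = 0.0375), had no counterpart between heterozygote and wild type, where its value was -0.16 ± 0.17 (adjusted p = 0.517), and the call was lost in 11 of 18 alternatives.

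Under some of the other terms, genes outside the 60 moved in both directions, and under others mostly or only upward. Of the other 25 genes under carboxylic acid transport, 4 rose and 1 fell in homozygotes against heterozygotes, and 7 rose and 2 fell in heterozygotes against wild type. Under epithelial fluid transport none of the other 7 rose and 3 fell in homozygotes against heterozygotes, and 2 rose and none fell in heterozygotes against wild type. Under inflammatory response, of 22 tested, 3 rose and 4 fell in the first comparison, and 1 rose and 2 fell in the second. Under lipid transport, of 18, 3 rose and 2 fell in the first, and 3 rose and 3 fell in the second. Under taxis, of 27, 6 rose and none fell in the first, and 3 rose and none fell in the second. Between homozygote and wild type, 12 rose and 1 fell under carboxylic acid transport, and 10 rose and 1 fell under taxis. In that comparison 3 rose and 2 fell under epithelial fluid transport, 6 and 5 under inflammatory response, and 6 and 3 under lipid transport.

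The remaining 8 annotated genes of the 60 are listed under different terms. LOC105180539, under lipid transport, had 560.3, 896 and 1089 in homozygotes, against 385, 417 and 226 in heterozygotes and 84.6 and 207 in wild type. LOC105183431, described above, is listed under taxis, locomotion, neuron projection morphogenesis and instar larval development. LOC105191392, also described above, is listed under biosynthesis of organic hydroxy compounds. LOC105181075, under positive regulation of extrinsic apoptotic signaling in the absence of ligand, had 881, 1131 and 1409 in homozygotes, against 841, 711 and 787 in heterozygotes and 146 and 329.5 in wild type.

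LOC105186162, under epithelial fluid transport, had 352, 396 and 629 in homozygotes, against 305, 267 and 315 in heterozygotes and 69.1 and 113 in wild type. LOC105185574, under inflammatory response, had 259, 299 and 403 in homozygotes, against 177, 190.0 and 247 in heterozygotes and 58.7 and 125 in wild type. LOC105191908, under regulation of vascular endothelial growth factor signaling, had 886, 969 and 1221 in homozygotes, against 687, 519 and 650.3 in heterozygotes and 219.8 and 435 in wild type. In LOC105181075 and LOC105186162 the heterozygote stood nearer to the homozygote than to the wild type, and in LOC105180539 nearer to the wild type. LOC105183286, under response to electrical stimulus, averaged 169 ± 25.1 in homozygotes, 106 ± 16.4 in heterozygotes and 59.1 ± 19.6 in wild type (SD, n = 7, 3 and 2).

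LOC105191288 is listed in the study's supplement as bordering an array of 9 odorant receptor genes, HsOr78 to HsOr86. It had 257, 365 and 457 in homozygotes, against 226, 134 and 249 in heterozygotes and 59.4 and 129 in wild type, with gaps between the groups of only 1.03 and 1.04. The receptors of the array ran the other way. The study reports reduced expression of most odorant receptor genes in homozygous mutants, so the fall is not particular to this array. All 9 fell in homozygotes below heterozygotes, with log2 fold changes from -7.03 to -1.83, and 3 of 9 fell in heterozygotes below wild type (edgeR, adjusted p under 0.05), where 16.2% and 8.14% of all genes tested were called lower.

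HsOr86, the receptor paired with LOC105191288 there, had normalized counts of 2.40, 7.21, 7.97, 10.9, 10.3, 5.23 and 0.967 in homozygotes, against 34.4, 58.7 and 44.2 in heterozygotes and 111 and 77.7 in wild type. It fell in homozygotes below heterozygotes, with a log2 fold change of -2.89 ± 0.39 (SE, edgeR adjusted p = 2.31e-04). The heterozygote difference of -1.13 ± 0.48 from wild type missed the threshold (edgeR adjusted p = 0.124). The 3 receptors that fell in heterozygotes were HsOr81 (-2.21), HsOr84 (-1.65) and HsOr85 (-2.85). HsOr84 missed the threshold without wild-type replicate 1 (-0.99), heterozygote replicate 2 (-1.49) or heterozygote replicate 3 (-1.60), and HsOr81 without heterozygote replicate 2 (-2.38) or 3 (-1.77). With no batch term HsOr81 (-2.19) and HsOr84 (-1.62) missed it, and with the replicate number as a block HsOr81 (-1.70), HsOr84 (-1.51) and HsOr85 (-2.69) all did. Several receptors were at 0 in most homozygote libraries, so the size of their fitted fold change depends on the prior count.

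**Figure D5:**
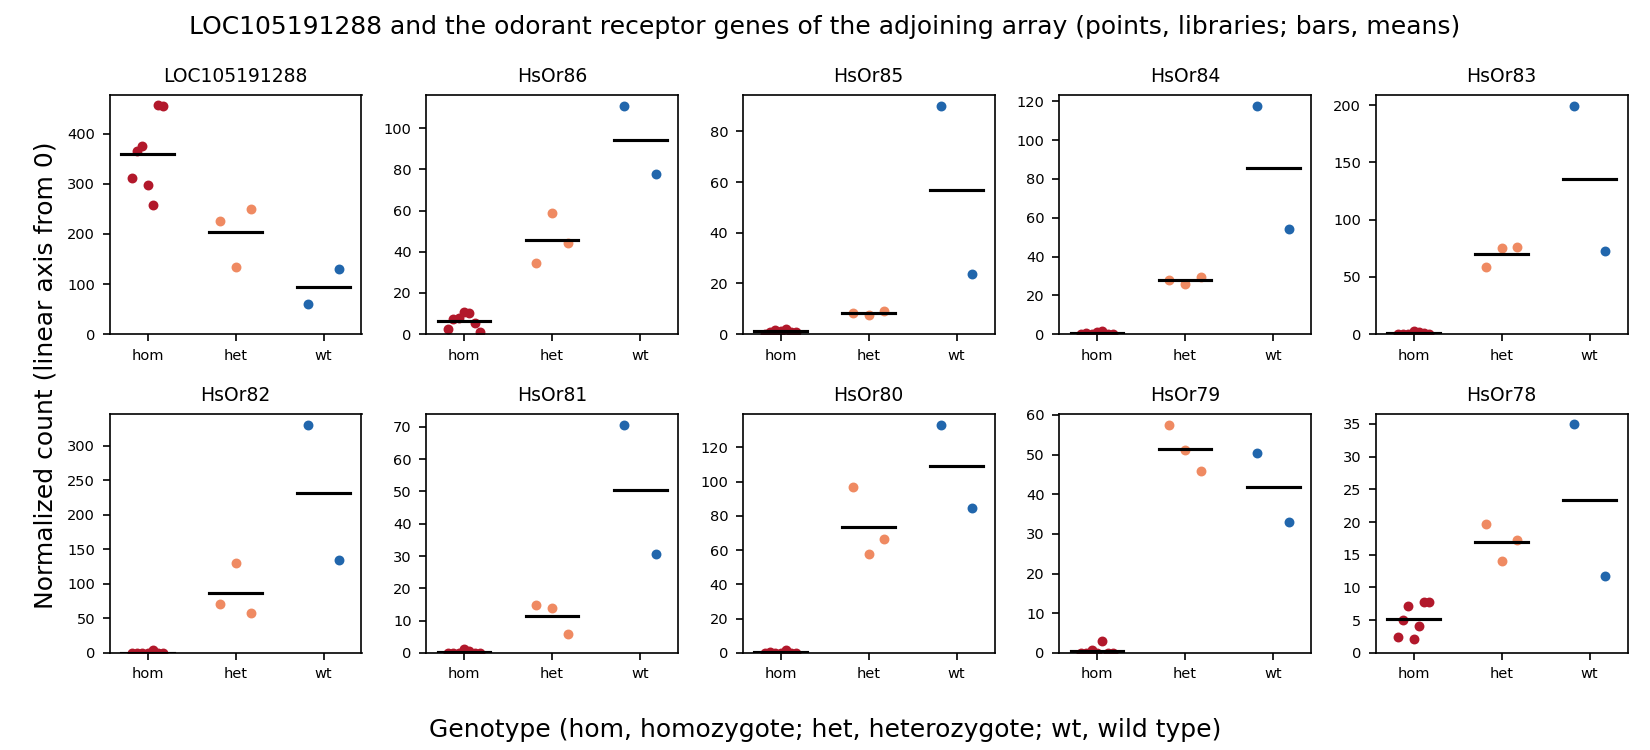
Normalized counts of LOC105191288 and the 9 receptor genes of the array it borders, 1 panel per gene on a linear axis from 0, with points for libraries and bars for group means. LOC105191288 is highest in homozygotes by the choice of genes, whereas all 9 receptors are lowest there.

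LOC105187505 and LOC105187512 lay 4 places apart in the order of the RefSeq table, which names no scaffolds. LOC105187512 had 679, 720.2 and 822 in homozygotes, against 374, 241 and 482 in heterozygotes and 120.3 and 228 in wild type. The 3 genes between them did not meet the rule, though the means of LOC105187508 and LOC105187509 rose in the same order. LOC105187507 averaged 161 in homozygotes, 176 in heterozygotes and 188 in wild type, and LOC105187508 averaged 69.5 in homozygotes, 64.0 in heterozygotes and 10.9 in wild type. LOC105187509 averaged 534 in homozygotes, 523 in heterozygotes and 465.5 in wild type.

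Among genes that meet the rest of the rule but do not fall under it were Rh50 (LOC105188823), an ammonium transporter gene that marks ammonia-sensing neurons, and G14359, which carries no LOC identifier. Rh50 lay between 830 and 1154 normalized counts in homozygotes, between 282 and 664 in heterozygotes and between 228 and 252 in wild type. G14359 averaged 218 in homozygotes, 118 in heterozygotes and 62.8 in wild type.

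Markers of the antennal cell types were read beside the 60 genes. Of 14 markers, all above 0 in every library, 2 rose and 5 fell in homozygotes against heterozygotes, and 4 rose and 1 fell in heterozygotes against wild type (edgeR, adjusted p under 0.05). Over all genes tested, 6.82% rose and 16.2% fell in the first comparison, and 9.71% rose and 8.14% fell in the second. The 5 calls of the second comparison were 0 without wild-type replicate 1, 1 without heterozygote replicate 3 and 3 without heterozygote replicate 1 or 2. Rh50 was the only one of the 14 that stood highest in homozygotes and lowest in wild type without overlap, and the support cell marker LOC105190591 stood in the opposite order without overlap. The 4 neuronal markers summed to between 5858 and 13916 in homozygotes, against 16627 to 23315 in heterozygotes and 14042 to 19511 in wild type. They did not move alike. nSyb lay between 1919 and 3531 in homozygotes, against 8688 to 10356 in heterozygotes and 7427 to 8579 in wild type. fne lay between 2168 and 6270 in homozygotes, against 3236 to 5655 and 4094 to 5103, and no comparison called it. Syt1 and onecut fell in homozygotes below heterozygotes but rose in heterozygotes over wild type. The mechanosensory neuron marker nompC was lowest in heterozygotes, at 81.0 to 120, against 138 to 223 in homozygotes and 226 to 261 in wild type. It rose in homozygotes over heterozygotes (log2 fold change 0.76 ± 0.18, SE, edgeR adjusted p = 0.0126). It fell in heterozygotes below wild type (-1.23 ± 0.23, edgeR adjusted p = 0.00473). Muscle Mhc lay between 33655 and 94343 in homozygotes, against 6406 to 50741 in heterozygotes and 2952 to 11401 in wild type, so its heterozygote libraries overlapped both other genotypes. It rose over wild type in heterozygotes (log2 fold change 2.48 ± 0.69, SE, edgeR adjusted p = 0.0308) and in homozygotes (3.76 ± 0.73, edgeR adjusted p = 0.00183). These values were not followed through the alternatives. By a different measure, single nuclei, the study reports fewer muscle cells in the mutant. The glial marker repo, a transcription factor of glia in Drosophila, lay between 1421 and 1912 in homozygotes, against 1120 to 1386 in heterozygotes and 1219 to 1280 in wild type. The epithelial marker grh lay between 235 and 718 in homozygotes, against 179 to 289 in heterozygotes and 55.7 to 678 in wild type. The 4 support cell markers summed to between 40122 and 62022 in homozygotes, against 34986 to 47124 in heterozygotes and 50562 to 78020 in wild type, and between 90.3% and 94.1% of each sum was LOC105182650. The others did not move together. LOC105190591 had between 780 and 1085 in homozygotes, against 1673, 1283 and 1718 in heterozygotes and 2056 and 1720.5 in wild type, and fell in homozygotes below heterozygotes by a log2 fold change of -0.70 ± 0.14 (SE, edgeR adjusted p = 0.00321). The marker sv had between 206 and 552 in homozygotes, against 353, 108 and 175 in heterozygotes and 20.05 and 259 in wild type, so that wild-type replicate 2 lay within the homozygote range. Its log2 fold change between homozygote and wild type was 2.26 ± 0.48 (edgeR adjusted p = 0.00339), was 1.13 without wild-type replicate 1 and 3.59 without wild-type replicate 2, and missed the threshold with no batch term (1.14). The part of these cell types in the levels of the 60 genes was not tested.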

How the data were processed

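For each of the 12 libraries the authors deposited raw read counts per gene, made with STAR 2.6.1d and their own gene annotation, and a table of normalized signal values, the counts divided by DESeq2 1.34.0 size factors. Each deposited signal value equalled the raw count times 1 constant per library (0.514 to 2.40). The genes were chosen on the normalized values, with the members, gene lists and alternatives set with earlier results of these data known. Lines that name no gene (unmapped 1.92% to 6.53%, multimapping 1.69% to 2.79%, outside genes 13.0% to 18.3%, ambiguous 2.29% to 4.23%) stayed out of library sizes. Genes averaging 10 or more raw counts were fitted in edgeR 4.0.16 (TMM, quasi-likelihood, genotype and sequencing batch, R 4.3.3), with Benjamini-Hochberg adjustment over all genes tested and a threshold of 0.05. The code was tested on simulated data. Named genes were the 20 with the highest homozygote mean and the 2 nearest on each side of each limit, and any other named gene was chosen for its annotation or after its values were seen. DESeq2 1.42.0, scaling by totals, no filter, no batch term, the replicate number as a block, batch 2 alone and leaving out each library were the alternatives. Lists by RefSeq product description were not run, since the table used has no descriptions.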

Additional observations from a re-analysis of the deposited data

Results flagged for a closer look

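In 8 of the 60 genes (13.3%), 1 homozygote library stood far above the other 6 by Dixon's test. Chance flags a far library, high and low counted together, in about 1 of 20 groups. The rule itself disfavors a far low homozygote library, since each had to lie above every heterozygote. Over the 7822 LOC genes past the minimum, 9.75% had such a high library and 4.99% a far low one. Homozygote replicate 1, from batch 1, was the high library in 5 of the 8, beside 81.1% of the LOC genes with a far high library. It had 1601 normalized counts of LOC105181381, against 999 to 1233 in the other homozygotes, 1460 of LOC105190744 (696 to 981), 629 of LOC105186162 (352 to 429), 408 of LOC105187798 (289 to 339) and 454 of LOC105189892 (206 to 286). Homozygote replicate 5 had 1652 of LOC105182853 (1039 to 1282 in the others) and 406 of LOC105189576 (260.2 to 323). Homozygote replicate 6 had 2848 of LOC105185673 (2019 to 2247).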

How the results depend on the processing

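The number of genes that meet the rule, 60 as reported, was 31 with counts scaled by library totals, 39 with a homozygote to heterozygote ratio of at least 1.5 and 361 in batch 2 alone, and ran from 60 to 149 when single libraries were left out. The genes called numbered 2468, 1917 and 4816 for homozygote against heterozygote, heterozygote against wild type and homozygote against wild type. They were 1486, 721 and 2966 with no batch term, and the second count was 3592 in batch 2 alone. Leaving out single libraries gave 1479 to 3131, 452 to 3908 and 1962 to 5978.

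The median log2 fold change of the 60 genes in the same comparisons, 0.69, 1.07 and 1.87, was 0.59, 1.00 and 1.70 scaled by totals. For the last 2 comparisons it was 1.01 and 1.73 with no batch term and 1.19 and 1.97 in batch 2 alone. With single libraries left out it ran from 0.59 to 0.79, 0.91 to 1.21 and 1.64 to 1.96. Scaling by totals moved the median of all genes between homozygote and heterozygote to -0.12 and between homozygote and wild type to -0.22, and the percent of calls that were higher was 11.6%, 46.9% and 28.9%, against 29.7%, 54.4% and 42.5%. DESeq2 gave 44.0%, 53.0% and 47.6%.

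Replicate numbers gave no steady sign of pairing. Deviations of same-numbered homozygotes and heterozygotes correlated at 0.57, -0.0042 and 0.061 for numbers 1 to 3, and number 1 shares a batch there. For numbers 1 and 2, heterozygotes and wild type correlated at -0.60 and -0.45, and homozygotes and wild type at -0.39 and 0.16. The pairs with wild type cannot decide it, since deviations of 2 libraries mirror each other and no such pair shares a batch. With the replicate number as a block 470, 79 and 771 genes were called, the median of the 60 was 1.02 and 1.74 in the last 2 comparisons, and 1, 0 and 27 of the 60 were called higher.

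Values that changed sign were uncalled ones for heterozygote against wild type. HsOr79 was -0.051 in batch 2 alone and ran from -0.088 to 0.76 with single libraries left out. HsOr80 ran from -1.11 to 0.17 in this way. LOC105184816 was 0.15 in batch 2 alone and ran from -0.50 to 0.14. The causes were not tested. Lists by product description were not run.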
